A study of Mus musculus with 18 samples.

Results

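The transcripts of 4 genes, *Klk8*, *Olfm4*, *Lox* and *Tmc3*, of the 55536 genes in the count table were followed in microglia of the mouse striatum with and without *Tyrobp*. The 4 genes were selected by symbol because their counts in these samples were low in *Tyrobp*-null microglia although none of the 4 is among the 25 genes of a list of disease-associated microglia genes. Their lower level after deletion is therefore the reason for the selection and not a finding. The selection holds for *Klk8*, *Olfm4* and *Lox* in both null genotypes. It does not hold for *Tmc3*, which was low in *Tyrobp*-/- microglia but not in Q175;*Tyrobp*-/- microglia.

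Striatal microglia were enriched with CD11b beads from WT mice (n = 5, 1 female), mice lacking *Tyrobp* (*Tyrobp*-/-, n = 3, 2 females), heterozygous Q175 mice, a knock-in model of Huntington's disease (Q175, n = 5, 4 females), and Q175 mice lacking *Tyrobp* (Q175;*Tyrobp*-/-, n = 5, 2 females). All 18 samples carry the C57BL/6 strain label, and the age of these mice is given only as adult. The *Tyrobp* deletion is constitutive, so every cell of the null animals lacks the gene from birth, and samples are single preparations in which CD11b also captures other myeloid cells. The labels give 2 striata per sample and the methods 1. P-values measure the spread between these preparations.

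*Tyrobp* encodes an adaptor protein that carries signals from TREM2 and other immune receptors to the kinase SYK, and in the brain its transcript is made mainly by microglia. The 4 genes act outside the receptor complex. *Klk8* encodes neuropsin, a secreted serine protease of the kallikrein family that cleaves synaptic adhesion proteins. *Olfm4* encodes a secreted olfactomedin-domain glycoprotein known from neutrophil granules and intestinal stem cells. *Lox* encodes lysyl oxidase, the secreted copper enzyme that crosslinks collagen and elastin. *Tmc3* belongs to the transmembrane channel-like family, whose relatives *Tmc1* and *Tmc2* form the mechanotransduction channel of hair cells.

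On build GRCm38, *Klk8* (ENSMUSG00000064023) lies at chr7:43797577-43803826 and *Tmc3* (ENSMUSG00000038540) at chr7:83584927-83625614, both on the plus strand of the chromosome that also carries *Tyrobp* (chr7:30413760-30417585), at distances of 13.4 and 53.2 Mb from it. *Olfm4* (ENSMUSG00000022026) lies at chr14:79984081-80023139 on the plus strand. The 3 are protein-coding. The 250 bases before the RefSeq transcription start, the proximal promoter, are shown for 3 of the genes, *Klk8* and *Olfm4*, which were low in both null genotypes, and *Tmc3*, which was low in only 1 of them. The sequence of *Lox* was not used here. They come from RefSeq on GRCm38.p6, plus strand, at chr7:43797327-43797576, chr14:80000052-80000301 and chr7:83584681-83584930. The capitals mark a match to the motif of PU.1, the myeloid transcription factor.

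Klk8: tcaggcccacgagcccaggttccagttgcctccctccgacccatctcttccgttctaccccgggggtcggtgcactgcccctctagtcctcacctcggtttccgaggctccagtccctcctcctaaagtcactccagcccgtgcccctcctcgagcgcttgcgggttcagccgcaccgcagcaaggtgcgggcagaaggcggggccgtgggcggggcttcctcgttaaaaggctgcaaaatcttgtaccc

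Olfm4: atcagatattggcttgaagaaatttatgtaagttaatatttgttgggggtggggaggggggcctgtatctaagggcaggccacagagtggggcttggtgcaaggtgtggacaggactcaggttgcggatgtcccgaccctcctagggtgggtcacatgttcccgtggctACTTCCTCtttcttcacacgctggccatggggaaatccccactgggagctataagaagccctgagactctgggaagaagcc

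Tmc3: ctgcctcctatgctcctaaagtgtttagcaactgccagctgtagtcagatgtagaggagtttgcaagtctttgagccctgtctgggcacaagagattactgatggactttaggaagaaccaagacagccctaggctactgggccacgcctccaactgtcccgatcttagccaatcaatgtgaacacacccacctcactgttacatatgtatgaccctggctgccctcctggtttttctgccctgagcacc

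The *Klk8* promoter was the richest in G and C of the 3, at 65.2% with 18 CpG dinucleotides, against 54.0% with 4 in *Olfm4* and 51.2% with 2 in *Tmc3*, where the medians of 32851 RefSeq promoters were 52.4% and 6. Both strands were searched for 6 short motifs. These were the core promoter element TATAAA, the motif TGANTCA bound by AP-1 factors of the Fos and Jun families, the cyclic AMP response element (CRE) TGACGTCA, and the E-box CACGTG, which MITF and TFE factors bind. Added to them were GAGGAAGT for PU.1 and TTCNNNGAA for STAT factors. The only match in the 3 sequences was a PU.1 motif on the minus strand of *Olfm4*, 81 to 74 bases before the start. Over all promoters the PU.1 letters occurred in 2.44%, against 12.4% for the TATA box, 6.75% for AP-1, 1.55% for CRE, 6.02% for the E-box and 7.02% for STAT. These are matches of letters and no binding was measured. The RefSeq start of *Olfm4* lies inside the GENCODE gene, downstream of its annotated start.

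Total counts were between 11260410 and 29771983 per sample. Levels are given as counts per 1000000 counts of a sample after TMM normalization (CPM). *Tyrobp* itself was between 196 and 475 CPM in the 10 samples with the gene and between 9.89 and 21.3 CPM in the 8 null samples, so every sample matched its label for the deletion. Q175 cannot be checked in this way. The summed level of 20 microglia markers was between 19421 and 34745 CPM, and all 20 had counts in every sample. In bulk samples fewer cells that use a gene and less RNA per cell cannot be told apart.

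The plot of levels by sample shows 2 patterns. *Klk8*, *Olfm4* and *Lox* were each lower in all 8 null samples than in all 10 samples with *Tyrobp*. They were selected for this gap, and the share of all genes that separate in this way was not computed. *Tmc3* was low in the 3 *Tyrobp*-/- samples alone. Per kilobase of exon, the mean levels in WT microglia were 20.2 ± 5.03 CPM for *Klk8*, 3.24 ± 0.883 for *Olfm4*, 1.31 ± 0.627 for *Tmc3* and 0.653 ± 0.460 for *Lox* (SD, n = 5). Between samples, *Tmc3* and *Lox* overlapped on this scale.

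**Figure D1:**
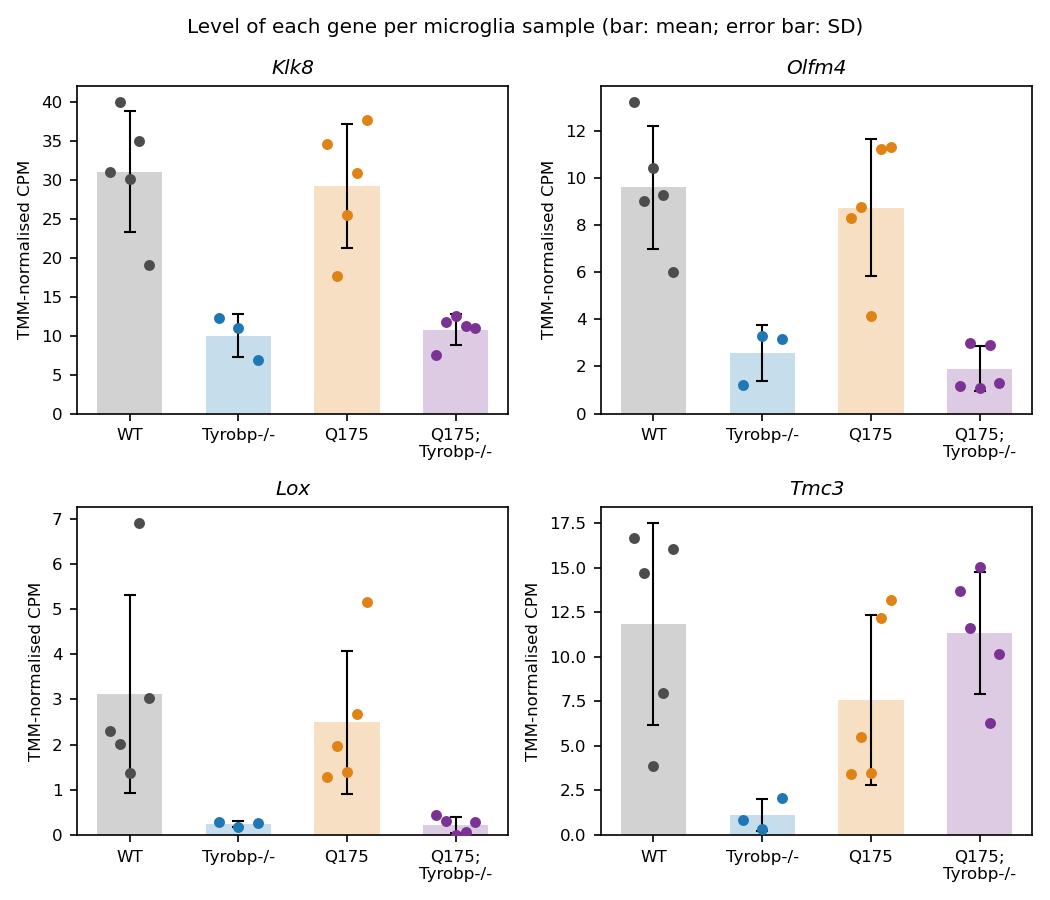
TMM-normalised CPM of each gene (vertical axes, from 0) in the 18 samples, by genotype on the horizontal axes. Points are samples, bars are group means and error bars are SD. *Klk8*, *Olfm4* and *Lox* separate the null from the intact genotypes, the gap they were selected for. The 5 Q175;*Tyrobp*-/- samples of *Tmc3* lie between 6.26 and 15.02 CPM, above the 3 *Tyrobp*-/- samples.

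*Klk8* (neuropsin) had 31.0, 40.0, 30.1, 35.0 and 19.1 CPM in the WT samples 1, 2, 6, 7 and 8, and 12.2, 10.95 and 6.84 CPM in the *Tyrobp*-/- samples 15, 19 and 20. The Q175 samples 3, 4, 9, 14 and 17 had 34.6, 17.6, 25.4, 30.8 and 37.7 CPM, and the Q175;*Tyrobp*-/- samples 5, 11, 12, 13 and 16 had 7.45, 11.7, 12.5, 11.3 and 10.99 CPM. The lowest intact sample (17.6 CPM) thus lay above the highest null sample (12.5 CPM). *Klk8* was selected for this gap, and the share of all genes with such a gap was not computed. Q175 and WT overlapped. The group means were 31.0 ± 7.74 CPM in WT (SD, n = 5), 10.004 ± 2.81 in *Tyrobp*-/- (n = 3), 29.2 ± 7.93 in Q175 (n = 5) and 10.8 ± 1.94 in Q175;*Tyrobp*-/- (n = 5). The residual level in null microglia was well above the counting floor, with at least 101 counts in each of these samples. The log2 fold change was -1.56 (SE 0.30) for *Tyrobp*-/- against WT and -1.44 (SE 0.21) for Q175;*Tyrobp*-/- against Q175. Among the 4 genes *Klk8* had the smallest log2 decrease in *Tyrobp*-/- microglia.

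*Olfm4* had 13.3, 9.05, 10.4, 9.30 and 6.01 CPM in WT and 1.22, 3.31 and 3.18 CPM in *Tyrobp*-/- microglia, with samples in the same order. In Q175 it had 8.32, 8.76, 4.13, 11.2 and 11.3 CPM, and in Q175;*Tyrobp*-/- 1.19, 2.98, 1.10, 2.92 and 1.32 CPM. The gap between the genotypes was narrow at its edge, where Q175 sample 9 (4.13 CPM) stood just above *Tyrobp*-/- sample 19 (3.31 CPM), and no sample crossed it. *Olfm4* was selected for this gap, and how many of all genes show one was not computed. Means were 9.61 ± 2.62 CPM in WT, 2.57 ± 1.17 in *Tyrobp*-/-, 8.75 ± 2.93 in Q175 and 1.90 ± 0.961 in Q175;*Tyrobp*-/-. The log2 fold change was -1.83 (SE 0.39) for *Tyrobp*-/- against WT and -2.21 (SE 0.37) for Q175;*Tyrobp*-/- against Q175. Within Q175;*Tyrobp*-/- 3 samples lay between 1.10 and 1.32 CPM and the other 2 at 2.92 and 2.98 CPM.

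Since *Olfm4* is a neutrophil granule gene, the summed level of 12 neutrophil markers was set beside it. This sum was between 2.65 and 215 CPM in WT, 44.0 and 247 CPM in *Tyrobp*-/-, 10.2 and 57.7 CPM in Q175, and 14.3 and 109 CPM in Q175;*Tyrobp*-/-. The groups overlapped, and the highest mean was in *Tyrobp*-/-, where *Olfm4* was low. The granule genes *S100a8* and *S100a9* had counts in all 18 samples, from 17 to 1275 and from 10 to 1039, while *Elane* had 1 count in 1 sample and *Mpo* none. The part of neutrophils in the *Olfm4* level was not tested.

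*Lox* (ENSMUSG00000024529), protein-coding at chr18:52516067-52529867 on the minus strand, was the least abundant of the 4 genes. It had 2.29, 2.01, 1.36, 6.90 and 3.03 CPM in WT and 0.290, 0.177 and 0.271 CPM in *Tyrobp*-/-. In Q175 it had 1.27, 1.97, 1.39, 2.68 and 5.15 CPM, and in Q175;*Tyrobp*-/- 0.438, 0.302, 0, 0.0596 and 0.297 CPM. The intact samples spread over several-fold, led by WT sample 7 and Q175 sample 17, and every null sample lay below every intact one. Selection of *Lox* rested on this gap, and the share of all genes with such a gap was not computed. Means were 3.12 ± 2.20 CPM in WT, 0.246 ± 0.0605 in *Tyrobp*-/-, 2.49 ± 1.59 in Q175 and 0.219 ± 0.183 in Q175;*Tyrobp*-/-. The log2 fold change was -3.57 (SE 0.67) for *Tyrobp*-/- against WT and -3.54 (SE 0.70) for Q175;*Tyrobp*-/- against Q175.

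The null values of *Lox* rest on few reads. Its counts were 5, 4 and 4 in the *Tyrobp*-/- samples and 7, 7, 0, 1 and 7 in the Q175;*Tyrobp*-/- samples, against 17 to 121 in the intact samples. The count of 0 in Q175;*Tyrobp*-/- sample 12 allows a level of up to 0.101 CPM before TMM scaling (3 counts). Pooled within a genotype and before TMM scaling, *Lox* was at 0.240 CPM in *Tyrobp*-/- (exact Poisson 95% interval 0.128 to 0.410) and 0.211 CPM in Q175;*Tyrobp*-/- (0.132 to 0.319). These intervals overlap and cover counting error only. *Lox* did not reach 1 CPM in any null sample, so it was not tested between the null genotypes.

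*Lox* is best known from fibroblasts, and 8 fibroblast markers (*Col1a1*, *Col1a2*, *Col3a1*, *Dcn*, *Lum*, *Pdgfra*, *Pdgfrb* and *Fn1*) were set beside it. Their summed level was between 36.0 and 63.6 CPM in WT, 20.7 and 62.5 CPM in *Tyrobp*-/-, 41.7 and 81.8 CPM in Q175, and 26.6 and 71.3 CPM in Q175;*Tyrobp*-/-. The group means were lower in the null genotypes (36.4 and 39.6 CPM against 50.4 and 56.5 CPM), and the ranges overlapped. In Q175;*Tyrobp*-/- against Q175 the median log2 fold change of the 5 markers tested was -0.76. There 3 of these were lower at an unadjusted p under 0.05 (edgeR's quasi-likelihood test). In *Tyrobp*-/- against WT the median over 6 was -0.18, with 0 lower at that level. None was called in either comparison. None of the 8 markers was at 0 throughout a group. The part of these cells in the *Lox* level was not tested.

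*Tmc3* departed from the other 3 genes. It had 16.7, 14.7, 3.85, 7.95 and 16.1 CPM in WT and 0.869, 0.353 and 2.10 CPM in *Tyrobp*-/- microglia. In Q175 it had 3.45, 5.51, 3.46, 12.2 and 13.2 CPM, and in Q175;*Tyrobp*-/- 13.7, 11.6, 15.02, 6.26 and 10.1 CPM. The *Tyrobp*-/- samples lay below all WT samples, whereas the Q175;*Tyrobp*-/- samples were spread through the range of WT and Q175, and all 5 lay above all 3 *Tyrobp*-/- samples. Shares of all genes with such gaps were not computed. Means were 11.8 ± 5.66 CPM in WT, 1.11 ± 0.897 in *Tyrobp*-/-, 7.56 ± 4.77 in Q175 and 11.4 ± 3.41 in Q175;*Tyrobp*-/-.

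The log2 fold change of *Tmc3* was -3.41 (SE 0.67) for *Tyrobp*-/- against WT and 0.58 (SE 0.40) for Q175;*Tyrobp*-/- against Q175. A Q175;*Tyrobp*-/- sample lay below a Q175 sample in only 6 of 25 pairs, and the mean was 1.502 times that of Q175. The *Tmc3* counts were 8 to 31 per *Tyrobp*-/- sample and 105 to 451 per Q175;*Tyrobp*-/- sample. The gap between the null genotypes rests on 3 *Tyrobp*-/- preparations, and without *Tyrobp*-/- sample 20 the log2 fold change of *Tmc3* against WT was -4.24 (SE 0.73).

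Counts from non-microglial cells were unequal between samples, so a score of their markers (astrocyte, neuron and oligodendrocyte marker levels, each scaled over the samples and then averaged) was set beside *Tmc3*. The *Tyrobp*-/- samples 15 and 19 had scores of -0.64 and -0.50, within the range of the WT samples (-0.72 to -0.37). Sample 20 had a score of 1.27, and the highest *Tmc3* level of the 3. The Q175;*Tyrobp*-/- samples had scores from -1.15 to 1.20, and the 2 with the lowest scores, samples 11 and 12, had 11.6 and 15.02 CPM of *Tmc3*. WT sample 6, at a score of -0.49, had 3.85 CPM. Within Q175, sample 9 had the lowest score, -0.036, and 3.46 CPM. Q175 samples 3 and 4, at 0.22 and 0.25, had 3.45 and 5.51 CPM. Q175 samples 14 and 17, at the higher scores of 1.46 and 0.60, had 12.2 and 13.2 CPM. The part of these cells in the *Tmc3* level was not tested.

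**Figure D2:**
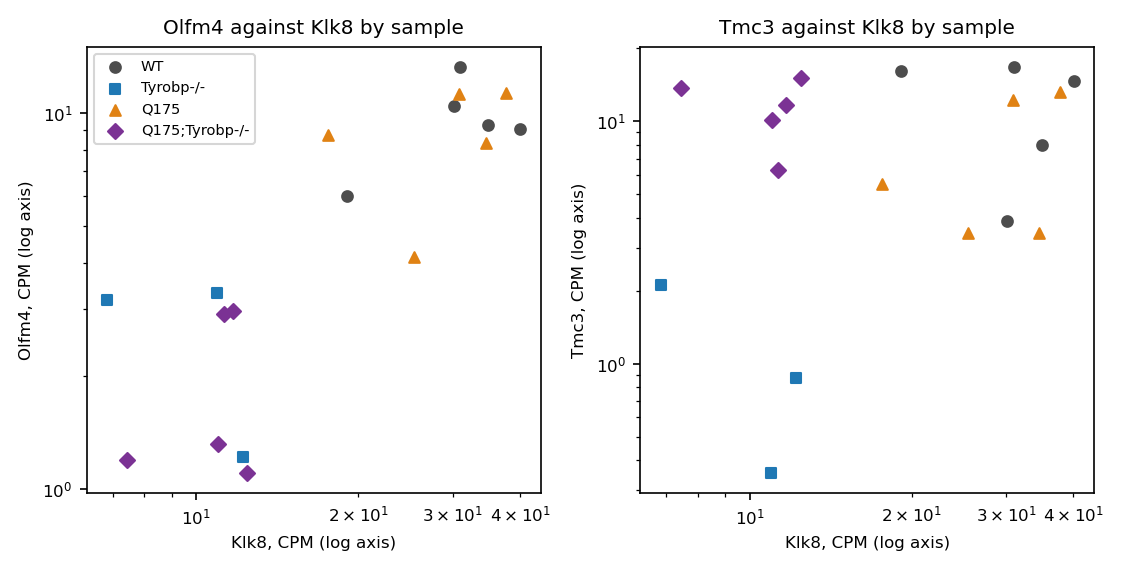
*Olfm4* (left) and *Tmc3* (right) against *Klk8* in CPM, both axes logarithmic, with 1 point per sample and marker by genotype. On the left both null genotypes share the lower corner, while on the right the Q175;*Tyrobp*-/- samples are low in *Klk8* only and the *Tyrobp*-/- samples are low in both genes.

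Counts of calls were read against all genes tested at an FDR of 0.1 (edgeR's quasi-likelihood test, Benjamini-Hochberg adjustment). In *Tyrobp*-/- against WT edgeR called 0 of the 4 genes lower, where it called 0.0222% of 18017 genes lower, and 4 of 4 were lower at an unadjusted p under 0.05, against 3.15% of all genes. DESeq2 called 4 of 4 lower, against 0.488%. In Q175;*Tyrobp*-/- against Q175 edgeR called 0 of 4 lower (0.0111% of 18059 genes), 3 of 4 were lower at an unadjusted p under 0.05 (4.56%), while DESeq2 called the same 3, *Klk8*, *Olfm4* and *Lox* (0.161%). These comparisons selected the genes, so the counts only describe them. Calls changed with the tool, and within edgeR with the filter on low counts and the samples in the fit.

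**Figure D3:**
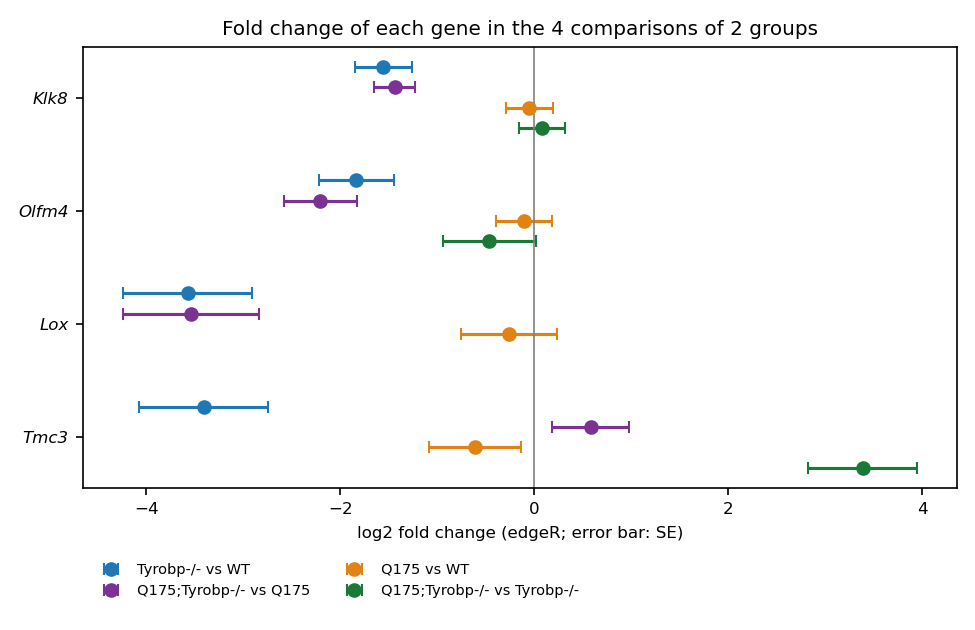
Log2 fold change (horizontal axis, edgeR, error bar SE) of each gene in the 4 comparisons of 2 genotypes. The 2 deletion comparisons lie together on the negative side for *Klk8*, *Olfm4* and *Lox* and on opposite sides of 0 for *Tmc3*. *Lox* has no point for Q175;*Tyrobp*-/- against *Tyrobp*-/- because it was not tested there.

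Whether Q175 alters these transcripts while *Tyrobp* is present was asked by comparing Q175 with WT, a contrast that did not enter the selection. None of the 4 genes passed the test. The log2 fold change was -0.05 (SE 0.24) for *Klk8*, -0.10 (SE 0.29) for *Olfm4*, -0.26 (SE 0.50) for *Lox* and -0.61 (SE 0.48) for *Tmc3*, with an adjusted p of 0.999 for each in edgeR's quasi-likelihood test (Benjamini-Hochberg). edgeR called 0% of 18266 genes here, 6.24% were under 0.05 before adjustment, and DESeq2 called 1.28%, with none of the 4 genes among any of these. The SE of each value leaves room for differences, so equal levels are not shown. Adding the score of non-microglial markers to the model gave *Tmc3* a value of -2.19 (SE 0.75), and *Olfm4* -0.83 (SE 0.48), neither of which was called. All Q175 scores (lowest -0.036) lay above all WT scores (highest -0.37), so this model cannot separate score from genotype.

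The null genotypes were then compared with each other. *Klk8* differed by a log2 fold change of 0.08 (SE 0.24) and *Olfm4* by -0.46 (SE 0.48) in Q175;*Tyrobp*-/- against *Tyrobp*-/- (edgeR, adjusted p = 0.913 and 0.725). *Tmc3* was 3.39 higher on the log2 scale (SE 0.56), with an adjusted p of 0.291 in edgeR's quasi-likelihood test and 1.85e-07 in DESeq2. Leaving out each sample in turn gave 2.94 to 4.23, the highest without *Tyrobp*-/- sample 20. Of the 3 genes tested edgeR called 0 (0% of 17723 genes), 1 was under 0.05 before adjustment (13.2%), and DESeq2 called 1 (3.84%), in both cases *Tmc3*. The *Tyrobp*-/- samples that made *Tmc3* a candidate also enter this contrast, so its value carries no independent evidence.

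The interaction asks whether the difference with deletion was itself different on the Q175 background. It was 0.19 (SE 0.35) for *Klk8*, -0.31 (SE 0.55) for *Olfm4*, 0.11 (SE 1.03) for *Lox* and 4.04 (SE 0.80) for *Tmc3* on the log2 scale. In edgeR's quasi-likelihood test no gene was called (adjusted p = 0.716 for *Tmc3*, 0% of 18613 genes), and 6.01% of all genes, *Tmc3* among them, had an unadjusted p under 0.05. DESeq2 gave 4.01 for *Tmc3* (adjusted p = 0.00143) and called 0.0107% of all genes, 1 of the 4 genes among them. The same *Tyrobp*-/- samples enter here too, and this result supports nothing on its own. Without *Tyrobp*-/- sample 20 it was 4.84 (SE 0.89).

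Sexes were unequal between the genotypes, so females and males were compared with genotype in the model. *Lox* was at a log2 fold change of 1.31 (SE 0.43) in females against males, which did not pass the adjustment (adjusted p = 0.878, edgeR's quasi-likelihood test). WT sample 7, the 1 female of its group, had the highest *Lox* level there, and Q175 sample 9, the 1 male of its group, the second lowest. The values were -0.05 (SE 0.20) for *Klk8*, -0.18 (SE 0.33) for *Olfm4* and 0.47 (SE 0.46) for *Tmc3*. edgeR called 0 of the 4 genes (0.043% of 18613 genes), *Lox* alone was under 0.05 before adjustment (5.18%), and DESeq2 called none of the 4 (0.0484%). With sex as a term the *Lox* difference of Q175 from WT was -0.94 (SE 0.48) in place of -0.26, and was not called either way.

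Within the 10 intact and, separately, the 8 null samples, the log2 levels of the 4 genes were correlated pair by pair, 12 relations in all. Each set pools 2 genotypes, so differences between these genotypes enter the correlations. None passed a permutation test at an adjusted p of 0.1. The closest pair was *Lox* and *Tmc3* in the intact samples, with a Pearson r of 0.57 (p = 0.0904, adjusted p = 0.709, permutation test, n = 10) and a Spearman rho of 0.65 (p = 0.0494, adjusted p = 0.416). Without the 2 samples farthest from the median of *Lox*, r was 0.89. *Klk8* and *Olfm4* had an r of 0.46 in the intact samples (p = 0.177, permutation test) and -0.16 in the null samples (exact permutation p = 0.497). Without the 2 samples farthest from the median of *Klk8* these were 0.50 and -0.59.

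The genes whose log2 levels ran most like each of the 4 over the 10 intact samples were picked from 16153 genes, and these correlations are a description. For *Klk8* they were *Gngt2* (r = 0.92), *Bmyc* (0.91) and *Thap1* (0.91), for *Olfm4* *Mrps34* (0.94), *Rpl11* (0.93) and *Atp5g2* (0.93), and for *Lox* *Klrg2* (0.92), *Oas1a* (0.90) and *Amz2* (0.89). None of these 9 was lower than -0.29 on the log2 scale in either deletion comparison. For *Tmc3* they were *Flnc*, which encodes the actin crosslinker filamin C (0.94), *Gas2l3* (0.91) and *Spp1*, the secreted phosphoprotein osteopontin (0.91). *Flnc* had a log2 fold change of -1.66 (SE 0.47) in *Tyrobp*-/- against WT and -0.15 (SE 0.31) in Q175;*Tyrobp*-/- against Q175. *Spp1* was low in both, at -6.58 (SE 0.58) and -5.72 (SE 1.05), so the likeness of *Tmc3* and *Spp1* among intact samples did not extend to the Q175;*Tyrobp*-/- samples. Over the 8 null samples the r with *Tmc3* was 0.88 for *Flnc* and 0.15 for *Spp1*. These samples pool 2 genotypes with mean *Tmc3* levels of 1.11 and 11.4 CPM, so the gap between genotypes enters each r. *Spp1* also had only 7 to 14 counts per *Tyrobp*-/- sample.

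**Figure D4:**
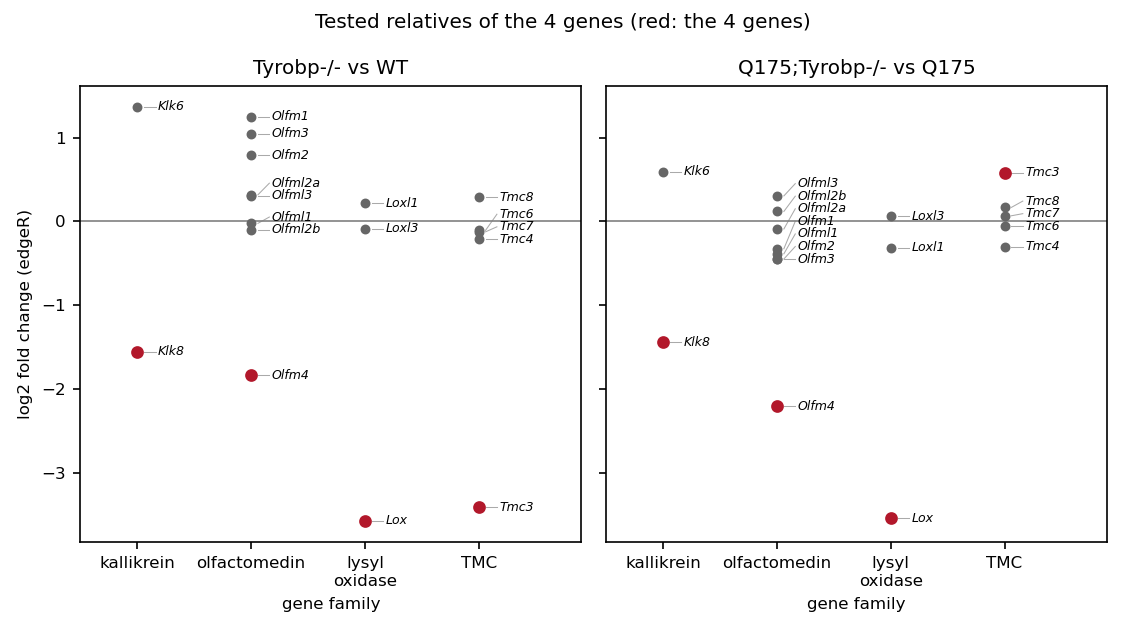
Log2 fold change (vertical axis, edgeR) of the tested genes of 4 families in *Tyrobp*-/- against WT (left) and Q175;*Tyrobp*-/- against Q175 (right), with 1 point per gene and the 4 selected genes in red. *Klk8*, *Olfm4* and *Lox* lie below all their tested relatives in both panels, and *Tmc3* lies below its relatives on the left only.

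The relatives of the 4 genes were not called in either deletion comparison by edgeR or by DESeq2. Of the 12 other kallikreins only *Klk6* reached 1 CPM, and 7 of the 13 family members had no count at all. *Klk6*, the neighbouring protease gene that is a known oligodendrocyte product, had 2.06 ± 1.84 CPM in WT, 5.14 ± 2.06 in *Tyrobp*-/-, 3.86 ± 1.94 in Q175 and 5.83 ± 3.13 in Q175;*Tyrobp*-/-. Its log2 fold change was 1.37 (SE 0.64) and 0.59 (SE 0.40) in the 2 deletion comparisons, on the side opposite to *Klk8*. Of 6 genes for neuropsin substrates, a receptor and an inhibitor, 5 were tested and none was called. Their median log2 fold change was -0.49 in *Tyrobp*-/- against WT and -0.47 in Q175;*Tyrobp*-/- against Q175, beside 0.02 and -0.05 over all genes. The 5 genes ranged from -0.83 to 0.26 and from -0.77 to -0.13. In both comparisons 0 were lower at an unadjusted p under 0.05 (edgeR's quasi-likelihood test). Among them *L1cam*, a synaptic adhesion protein that neuropsin cleaves, was at -0.57 (SE 0.41) and -0.56 (SE 0.42), and *Nrg1* (neuregulin) at -0.49 (SE 0.60) and -0.77 (SE 0.50). The fibronectin gene *Fn1* was at -0.83 (SE 0.38) and -0.47 (SE 0.30), and *Serpinb6a*, a serpin of the protease, at 0.05 (SE 0.31) and -0.13 (SE 0.24).

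Of the 9 olfactomedin relatives of *Olfm4* 7 were tested and none was called. *Olfml3*, itself a microglia marker, had 632 ± 185 CPM in WT and 742 ± 205 in *Tyrobp*-/-, and its log2 fold change was 0.31 (SE 0.30) there and 0.31 (SE 0.24) in Q175;*Tyrobp*-/- against Q175. *Olfml2b* was at -0.10 (SE 0.30) and 0.12 (SE 0.21), *Olfml1* at -0.02 (SE 0.35) and -0.39 (SE 0.24), and *Olfm1* at 1.25 (SE 0.44) and -0.32 (SE 0.38). Over these 7 the medians were 0.32 and -0.32. *Olfm1* is also a neuronal gene, and the summed level of 10 pan-neuronal markers was 310 to 835 CPM in *Tyrobp*-/- against 199 to 430 CPM in WT. The part of these cells was not tested.

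Of the other lysyl oxidases *Loxl3* and *Loxl1* were tested. *Loxl3* had 15.7 ± 7.03 CPM in WT, 14.05 ± 2.93 in *Tyrobp*-/-, 15.95 ± 1.79 in Q175 and 16.7 ± 3.87 in Q175;*Tyrobp*-/-, with log2 fold changes of -0.08 (SE 0.35) and 0.06 (SE 0.17). *Loxl1* was near 1 CPM, with 0.22 (SE 0.66) and -0.31 (SE 0.62). The protease *Bmp1*, which releases the active enzyme, was at -0.59 (SE 0.40) and -0.53 (SE 0.29), and the matrix protein *Postn*, which promotes that cleavage, at -0.97 (SE 0.29) and -0.99 (SE 0.38). *Col5a1* was at 0.49 (SE 0.59) and -0.33 (SE 0.28), and *Efemp2* at 0.09 (SE 0.42) and -0.28 (SE 0.22). None of the activators and substrates was called. Their medians were 0.09 over 9 genes and -0.66 over 8.

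The 4 tested transmembrane channel-like relatives of *Tmc3* had median log2 fold changes of -0.11 in *Tyrobp*-/- against WT and 0.01 in Q175;*Tyrobp*-/- against Q175. *Tmc7* had 53.8 ± 7.81 CPM in WT, 47.0 ± 6.83 in *Tyrobp*-/-, 47.9 ± 9.58 in Q175 and 50.3 ± 2.57 in Q175;*Tyrobp*-/-. *Tmc6* was at a log2 fold change of -0.11 (SE 0.23) and -0.06 (SE 0.13), *Tmc8* at 0.29 (SE 0.52) and 0.17 (SE 0.27), and *Tmc4* at -0.21 (SE 0.42) and -0.30 (SE 0.33). Of 5 partners of the hair cell channel 4 were tested and none was called, with medians of 0.22 and 0.21. The tip-link cadherins *Cdh23* and *Pcdh15* were at -0.03 (SE 0.43) and -0.62 (SE 0.44) in *Tyrobp*-/- against WT, and at 0.48 (SE 0.24) and 0.01 (SE 0.29) in Q175;*Tyrobp*-/- against Q175. The calcium-binding partner *Cib2* was at 0.46 (SE 0.28) and 0.41 (SE 0.30), and *Tmie* at 1.45 (SE 0.92) and -0.26 (SE 0.56).

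The nearest expressed genes on each chromosome were read beside the 4 genes. *Klk8* overlaps the start of the antisense transcript 2310002F09Rik, and because the libraries do not mark strand, reads in the overlap cannot be told apart. That transcript ranged from 0.492 to 6.30 CPM and was at -1.73 (SE 0.50) in *Tyrobp*-/- against WT and -0.72 (SE 0.44) in Q175;*Tyrobp*-/- against Q175. *Ctu1*, before *Klk8* on the chromosome and on the same side as most of that transcript, was at 0.06 (SE 0.30) and -0.07 (SE 0.17). The nearest gene after *Klk8* is *Klk6*, given above. *Tmc3* overlaps the antisense transcript *Gm16638*, which was at -0.01 (SE 0.32) and 0.16 (SE 0.16). The neighbours of *Tmc3*, *Mex3b* and *Stard5*, were at 0.84 (SE 0.36) and 0.12 (SE 0.20) in *Tyrobp*-/- against WT. In Q175;*Tyrobp*-/- against Q175 they were at 0.39 (SE 0.18) and 0.19 (SE 0.15). Next to *Lox*, *Srfbp1* was at -0.15 (SE 0.27) and -0.26 (SE 0.13) and *Sncaip* at 0.13 (SE 0.30) and 0.48 (SE 0.17). *Pcdh8* and *Pcdh17*, the nearest to *Olfm4*, were at 0.69 (SE 0.60) and -0.55 (SE 0.33) in *Tyrobp*-/- against WT. In Q175;*Tyrobp*-/- against Q175 these 2 genes were at -0.37 (SE 0.39) and -0.34 (SE 0.26).

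The 25 disease-associated genes, which hold none of the 4, gave a scale for the size of these differences. edgeR called 2 of them lower in *Tyrobp*-/- against WT, *Spp1* and the lectin receptor gene *Clec7a*, and 0 in Q175;*Tyrobp*-/- against Q175, where DESeq2 called 9 and 10. Their median log2 fold change was -0.71 and -1.06. *Clec7a* was at -2.50 (SE 0.28) and -2.10 (SE 0.44), in *Tyrobp*-/- a size between *Olfm4* and *Lox*. Of the most abundant genes of the list none was called in *Tyrobp*-/- against WT, with *Ctsd* at 0.33 (SE 0.35) and *Ctsb* at 0.09 (SE 0.26), *Cd9* at -0.22 (SE 0.36) and *Fth1* at 0.93 (SE 0.39).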

How the data were processed

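RNA sequencing counts of striatal microglia from 18 samples in 4 genotypes were analysed. The authors made non-directional libraries with SMART-Seq v4 reagents, used STAR for alignment to GRCm38 and featureCounts for gene counts, as given in the methods, while the submitters' processing notes list GRCh38. The authors deposited raw counts with no normalization applied. All 55536 identifiers were mouse Ensembl genes of GENCODE release M21, which supplied symbols, coordinates and exon lengths. Of 20 columns 2 had no labelled sample and were not used. The members and lists were chosen with earlier results of these data known.

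Counts were scaled with TMM in edgeR 4.0.16 (R 4.3.3), and each gene reaching 1 CPM in any sample of a fit entered edgeR's quasi-likelihood test at a Benjamini-Hochberg FDR of 0.1. Comparisons of 2 genotypes used the samples of these genotypes alone, and the interaction and sex used all 18. DESeq2 1.42.0 was an alternative. An earlier version of DESeq2 is the tool the authors used for differential expression. Fold changes are log2 with SE, and CPM are over all samples. Correlations used log2 CPM (prior count 2) with Pearson's r and Spearman's rho, 2-sided permutation tests (100000 resamples for 10 samples, exact for 8) and Benjamini-Hochberg adjustment over 12 relations. Total counts of 11260410 to 29771983 per sample set the precision, and reads without molecular identifiers are not independent molecules. The tests were tried on simulated counts. Other settings were 2 other scalings, filterByExpr or no filter, an FDR of 0.05, robust fitting, 1 fit over all groups, adding sex or the non-microglial score to the model, and leaving out each sample in turn.

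Named genes are the 4 members, *Tyrobp*, called genes of the lists and up to 4 genes per list with the most counts, the 3 genes most like each member, and the nearest expressed genes. List genes called by edgeR count as called in this rule. Sequence of *Lox*, proteins and the bulk tissue data were not used here.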

Additional observations from a re-analysis of the deposited data

Results flagged for a closer look

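In these samples the deletion of *Tyrobp* went with different *Tmc3* levels on the 2 backgrounds, a difference that DESeq2 called and edgeR did not. The interaction of Q175 and deletion was 4.04 on the log2 scale in edgeR's quasi-likelihood test (adjusted p = 0.716) and 4.01 in DESeq2 (adjusted p = 0.00143). Its range was 3.59 to 4.84 over 27 other settings, of which an FDR of 0.05 and robust fitting cannot move it. All 5 Q175;*Tyrobp*-/- samples were above all 3 *Tyrobp*-/- samples. The share of all genes with such a gap was not computed. Between these 2 genotypes 13.2% of 17723 genes had an unadjusted p under 0.05 in edgeR's quasi-likelihood test. The *Tyrobp*-/- samples entered the choice of *Tmc3*, so the interaction supports nothing on its own. In the 12 groups of 4 or more samples of the 4 genes no sample stood apart by Dixon's criterion, and the 3 *Tyrobp*-/- samples were too few to be examined in this way.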

How the results depend on the processing

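Directions of the deletion differences held for all 4 genes in all 80 values of other settings for Q175;*Tyrobp*-/- against Q175 and all 72 for *Tyrobp*-/- against WT. The genes were selected on these differences, so directions that hold only describe them and are no independent evidence. The largest move was that of *Tmc3* in *Tyrobp*-/- against WT, from -3.41 to -4.24 without *Tyrobp*-/- replicate 20, within a range of -4.24 to -2.96. Calls did not hold. At an FDR of 0.1 the number of the 4 genes called in Q175;*Tyrobp*-/- against Q175 was 0 in edgeR's quasi-likelihood test, 3 in DESeq2, 1 with filterByExpr (*Klk8*), 2 with no filter, 3 in 1 fit over all 4 groups, and 0 to 1 when each sample was left out, with 1 without Q175 replicate 4 (*Klk8*) or 9 (*Olfm4*). In *Tyrobp*-/- against WT it was 0, but 4 in DESeq2, 3 with no filter and 1 in 1 fit over all 4 groups (*Klk8*). For Q175;*Tyrobp*-/- against *Tyrobp*-/- and for the interaction DESeq2 called 1, *Tmc3*, and edgeR 0.

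Small differences that were never called changed sign. When each sample was left out, Q175 against WT ranged from -0.21 to 0.092 for *Klk8*, -0.26 to 0.053 for *Olfm4* and -0.76 to 0.22 for *Lox*. With the score in the model *Olfm4* was at -0.83 there, and with sex at -0.53. The *Lox* interaction was 0.99 with sex in the model. *Klk8* ranged from -0.13 to 0.27 in Q175;*Tyrobp*-/- against *Tyrobp*-/-, where sex as a term gave -0.0048, and from -0.058 to 0.36 for the interaction, where the non-microglial score as a term gave -0.037. The *Lox* interaction ranged from -0.39 to 0.58. The sex difference of *Klk8* ranged from -0.14 to 0.045 and was 0.15 with the score. Without the 2 samples farthest from the median, 2 of 12 correlations passed, both of *Lox* and *Tmc3*, at r = 0.89 in intact samples and 0.79 in null samples, where it was -0.14 over all 8. The causes were not tested. Total-count scaling moved the median interaction of all genes from 0.04 to 0.15. *Lox* between the null genotypes has no value in the main setting. No paired analysis was possible because no replicate number occurs in more than 1 genotype. Depth limits *Lox*, with at most 7 counts in a null sample.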
